A study of Arabidopsis thaliana with 12 samples.

Results

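Seedlings of the Arabidopsis mutant gun1 were compared with wild type on medium for which the labels name no plastid inhibitor. The comparison rests on 6 of the 12 RNA libraries of the series, 3 from gun1 and 3 from wild type, chosen by their titles and genotype labels. The gun1 seedlings carried the allele gun1-103 (SAIL_742_A11), a T-DNA insertion line, and wild type was the parental accession Col-0, with no allele or agent common to both. A single mutant line was sequenced, so an effect of GUN1 and another difference of that line cannot be told apart. All were whole seedlings of 4 d, grown after 2 d at 4 °C in the dark on half-strength Murashige and Skoog medium with 1% sucrose, then at 22 °C with 16 h of light and 8 h of dark at 100 µmol m-2 s-1. The other 6 libraries, 3 each of fug1 and gun1 fug1, entered the filter on low counts, the scaling factors and the common estimate of spread. Nothing in the labels says that replicates came from separate cultures, so p-values measure the spread between these samples.

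GUN1, a pentatricopeptide repeat protein, sits in the plastid and helps to relay the plastid's state to the nucleus. The gun mutants are known for keeping nuclear photosynthesis genes active when plastid development is blocked by norflurazon or lincomycin, and GUN1 also takes part in plastid protein balance. A young seedling at this stage uses up the last seed reserves, extends root and root hairs, and expands its cotyledons in the light. RNA of a whole seedling mixes all of these organs, so that fewer cells of a type and less RNA per cell cannot be told apart.

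The deposited values were raw read counts per gene. Library totals were 9614145 to 10675356 in gun1 and 10167838 to 12360838 in wild type. Plastid-encoded genes took 75.0% to 76.7% of the counts in gun1 and 68.5% to 73.1% in wild type, which left 2342717 to 2588130 nuclear counts in gun1 and 2692154 to 3845832 in wild type. Levels are given as normalised counts (CPM, scaled to a common library size with TMM factors). They are not divided by gene length, so they compare libraries and not genes. Genes with a Benjamini-Hochberg adjusted p below 0.05 in edgeR's quasi-likelihood test, run on 15371 genes, are called here, and log2 fold changes, gun1 over wild type, are given with their standard error. Genes named by rank had to show no overlap between the groups, and some were picked for a fold change large against the gun1 range. Their separation and small ranges are thus a description and no added support.

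The mutated gene was checked first. GUN1 (AT2G31400), a gene of 4 exons on the minus strand at chr2:13386954-13390854 of TAIR10.1, had 8.94, 9.44 and 7.2 CPM in gun1, against 38.7, 36.4 and 29.6 CPM in wild type. No gun1 library overlapped a wild-type library, and the difference was -2.03 ± 0.21, adjusted p = 4.45e-06. FUG1, which encodes a plastid translation initiation factor and carries no labelled mutation here, had 33.8, 17.8 and 13.8 CPM in gun1, against 44.4, 35.9 and 26.3 CPM in wild type, and was not called (-0.70 ± 0.30, adjusted p = 0.188). In all, 541 genes were higher in gun1 (3.52% of those tested) and 372 lower (2.42%), which makes 913 called genes (5.94%), and the median log2 fold change over all tested genes was 0.02. Every gun1 library lay above every wild-type library for 2273 genes (14.8%) and below for 2052 genes (13.3%), and of the called genes 507 of the higher and 345 of the lower ones were separated in this way. The test favours such genes, so the counts among called genes are no separate support.

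The gun1 libraries differed among themselves more than the wild-type ones did. They also held fewer nuclear counts (2342717 to 2588130, against 2692154 to 3845832), and a part of depth in this difference was not tested. Over all tested genes the median range (highest minus lowest log2 level) was 0.58 over the 3 gun1 libraries and 0.46 over the 3 wild-type ones. Between gun1 3 and gun1 1, 12.5% of genes differed by over 2-fold, between gun1 2 and gun1 1 8.07%, and between gun1 3 and gun1 2 8.17%. Among wild-type libraries these shares were 6.4% for wild type 3 against 1, 6.34% for 3 against 2 and 2.66% for 2 against 1. The library gun1 1 stood near wild type: its log2 levels correlated (across genes, and genes are no independent replicates) with those of wild type 3 at r = 0.958 and with those of gun1 2 and gun1 3 at 0.949 and 0.922. On the first principal component of the 6 libraries, which held 58.9% of their variance, gun1 1, 2 and 3 lay at 1.38, 38.8 and 65.1, and wild type 1, 2 and 3 at -46.5, -48.5 and -10.3. Genotypes and the libraries within each genotype were thus spread along the same component. The difference gun1 3 minus gun1 1 and the difference of wild type 3 minus the mean of wild type 1 and 2, which share no library, correlated across the 15371 genes at r = 0.408 (Spearman's rho 0.381), given as a description.

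The called genes had the same order of libraries more often than all tested genes. Of the 541 higher genes, gun1 1 was the lowest gun1 library in 80.4%, against 35.6% of all tested genes, and gun1 3 the highest in 78.4%, against 33.8%. Of the 372 lower genes, gun1 1 was the highest in 73.9%, against 36.6%, and gun1 3 the lowest in 64.8%, against 36.1%. Wild type 3 was the wild-type library nearest to gun1, as the highest in 75.0% of the higher genes and the lowest in 78.8% of the lower ones, against 40.5% and 34.9% of all. The range within gun1 exceeded the log2 fold change in 31 of the 541 higher genes and 65 of the 372 lower ones, against 10754 of all 15371 tested genes. A call itself requires a fold change that is large against the spread within groups, so this contrast is partly set by the threshold. The gap between the nearest gun1 and wild-type libraries exceeded the range within both genotypes in 526 of all 15371 tested genes. Of these 117 were called higher, 90 called lower and 319 not called.

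Counts of called members in the gene groups below stand against 3.52% of all tested genes called higher and 2.42% called lower. Counts of separated members stand against 14.8% upwards and 13.3% downwards. A gene near 0 in wild type passes the filter on low counts only through libraries where it is higher. In lists of such genes the median and the absence of falls are thus partly set by the filter. The directions of gene groups given here are relative to TMM scaling. With library totals alone the median log2 fold change over all tested genes was -0.54 in place of 0.02, and edgeR called 0 genes as higher and 1 as lower, with 570 genes in either direction at an unadjusted p under 0.05. With library totals over all 12 libraries the medians of the root hair (2.51), triterpene (2.23), seed (1.59) and suberin (0.58) lists were still above 0. So were those of the extensins (1.31) and peroxidases (0.75). The lowest gun1 mean log2 level, relative to wild type, lay below the highest wild-type one there for root hair (0.683 against 0.967) and suberin (0.183 against 0.403). For seed (1.13 against 0.489) and triterpenes (1.3 against 0.776) it lay above. The medians of the aquaporins (-0.27), oil mobilisation (-0.08), the nitrate and peptide transporter family (-0.19), the expansins (-0.09) and the arabinogalactan proteins (-0.01) were below 0 there, and that of abscisic acid and cold was 0.08.

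**Figure D1:**
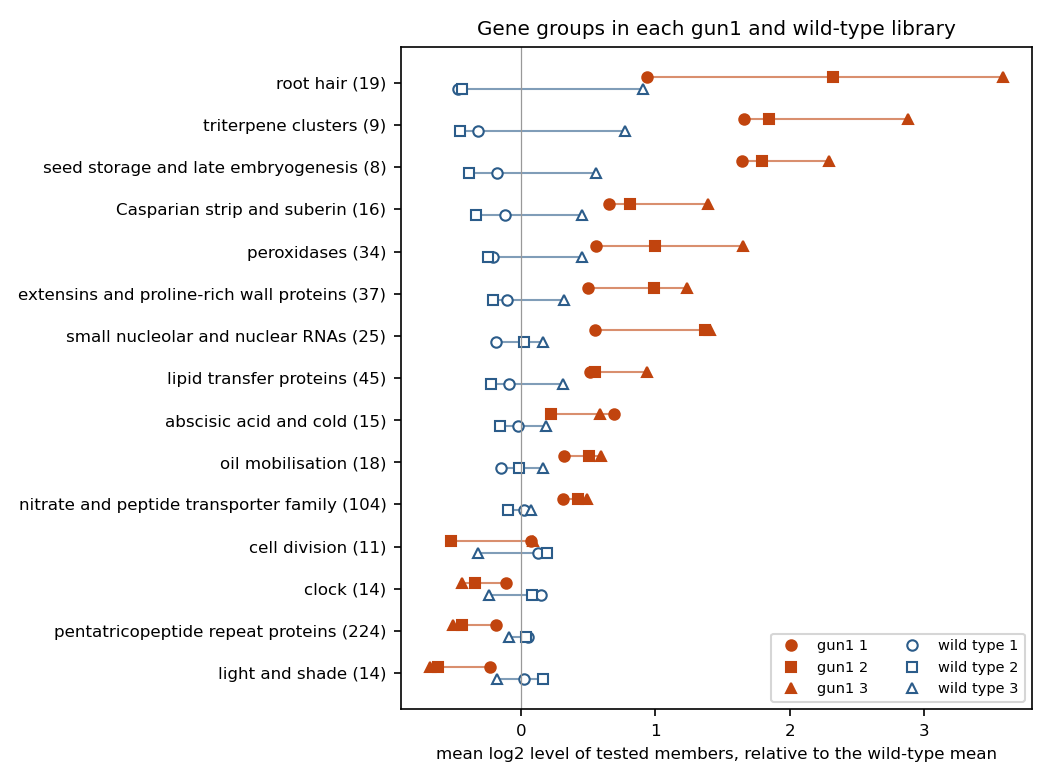
Mean log2 level of the tested members of 15 gene groups (number in brackets) in each of the 3 gun1 libraries (filled, upper row of each pair) and 3 wild-type libraries (open, lower row), relative to the wild-type mean. Root hair genes span from 0.94 to 3.59 over gun1 and reach 0.91 in wild type 3, whereas seed genes span from 1.65 to 2.29 over gun1 and reach 0.56 in wild type 3.

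The tested seed genes were high in all gun1 libraries. The list of seed storage and late embryogenesis genes held 24 members, of which 8 passed the filter on low counts, 5 rose and none fell (8 tested, median 2.14). Their mean log2 level, relative to the wild-type mean, was 1.65, 1.79 and 2.29 in gun1 1, 2 and 3 and -0.18, -0.38 and 0.56 in wild type 1, 2 and 3, so that every gun1 library lay above every wild-type one. Over all 24 members, tested or not, the summed level was 62.3, 73.0 and 112 CPM in gun1, against 16.3, 15.3 and 30.4 CPM in wild type. The 16 untested members held only 33 counts in gun1 and 54 in wild type, so the rise is that of the tested members. CRA1 (AT5G44120), a cruciferin and thus a storage globulin of the seed, had 14.8, 18.3 and 34.1 CPM in gun1, against 3.05, 2.27 and 4.18 CPM in wild type (2.82 ± 0.29, adjusted p = 1.73e-05). OLEO1 (AT4G25140), an oleosin that coats oil bodies, had 3.51, 4.72 and 4.9 CPM in gun1, against 0.475, 0.528 and 1.45 CPM in wild type (2.45 ± 0.34, adjusted p = 0.000167). PER1 (AT1G48130), a 1-cysteine peroxiredoxin of seeds, had 5.78, 6.69 and 8.88 CPM in gun1, against 1.74, 1.64 and 2.51 CPM in wild type (1.86 ± 0.27, adjusted p = 0.000329). All 3 genes were separated between genotypes, with gun1 3 highest. The other called members, OLEO2 and GEA6, named after their values were seen, had log2 fold changes of 2.28 and 2.00. RAB18, a dehydrin, had 1.2 and was not called.

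Some genes outside the seed list that are known from seeds or abscisic acid responses were higher too. Of 22 aquaporins, 2 rose, and both were the seed-type channels of the vacuole membrane. BETA-TIP (AT1G17810) had 2.13, 2.06 and 1.91 CPM in gun1, against 0.159, 0.105 and 0.223 CPM in wild type (3.58 ± 0.47, adjusted p = 0.00012). It was among the genes with the least spread in gun1, at a range of 0.145 log2, but rests on 24 to 31 counts per gun1 library and 2 to 4 per wild-type library, and its locus overlaps AT1G05333 on the other strand, which rose with it. TIP3;1 (AT1G73190) had 7.84, 9.44 and 13.8 CPM in gun1, against 1.62, 0.739 and 2.9 CPM in wild type (2.57 ± 0.43, adjusted p = 0.00455), and its locus overlaps AT1G73200. BGLU19 (AT3G21370), a beta-glucosidase gene whose locus overlaps AT3G21360, had 8.12, 6.09 and 8.96 CPM in gun1, against 1.58, 0.791 and 1.84 CPM in wild type (2.45 ± 0.31, adjusted p = 7.37e-05). TSPO (AT2G47770), a membrane protein induced by abscisic acid, had 5.78, 8.24 and 10.3 CPM in gun1, against 1.19, 1 and 2.62 CPM in wild type (2.35 ± 0.35, adjusted p = 0.000557). KTI1 (AT1G73260), a Kunitz trypsin inhibitor, had 6.47, 7.55 and 13 CPM in gun1, against 1.86, 1.48 and 3.35 CPM in wild type (2.02 ± 0.29, adjusted p = 0.000362). In each of these 5 genes the lowest gun1 library exceeded the highest wild-type one, which was a condition for genes named by rank.

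The 250 bases before the annotated start of 5 genes show the letters that seed and root hair promoters are known for (RefSeq, TAIR10.1). They are given because the first 3 genes are the seed genes of smallest p and steadiest level and the last 2 are the root hair genes called whichever library was left out. Capitals mark CATGCA, the RY element bound by B3 factors such as ABI3, and ACGTG, the core of the abscisic acid response element, each on either strand.
CRA1, chr5:17758337-17758586, minus strand: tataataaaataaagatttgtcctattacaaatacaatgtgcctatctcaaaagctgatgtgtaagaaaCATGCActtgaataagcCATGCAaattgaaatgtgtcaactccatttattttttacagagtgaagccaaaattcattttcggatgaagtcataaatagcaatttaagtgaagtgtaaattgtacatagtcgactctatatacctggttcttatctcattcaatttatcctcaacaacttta
OLEO1, chr4:12900180-12900429, plus strand: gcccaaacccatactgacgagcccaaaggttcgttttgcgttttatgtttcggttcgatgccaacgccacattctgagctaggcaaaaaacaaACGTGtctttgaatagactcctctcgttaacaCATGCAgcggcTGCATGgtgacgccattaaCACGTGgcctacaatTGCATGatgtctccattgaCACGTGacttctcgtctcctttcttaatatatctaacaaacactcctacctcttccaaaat
BETA-TIP, chr1:6129775-6130024, plus strand: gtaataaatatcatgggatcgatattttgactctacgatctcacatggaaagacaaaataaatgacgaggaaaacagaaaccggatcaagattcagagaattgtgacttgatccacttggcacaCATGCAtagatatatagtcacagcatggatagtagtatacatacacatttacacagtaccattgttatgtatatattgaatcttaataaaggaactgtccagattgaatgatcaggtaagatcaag
SHV2, chr5:19974531-19974780, minus strand: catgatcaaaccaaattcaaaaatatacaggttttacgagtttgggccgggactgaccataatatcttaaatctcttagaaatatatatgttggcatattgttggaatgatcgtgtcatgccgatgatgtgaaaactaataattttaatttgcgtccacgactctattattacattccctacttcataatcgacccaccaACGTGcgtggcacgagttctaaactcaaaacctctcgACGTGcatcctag
MOP10, chr5:1629360-1629609, plus strand: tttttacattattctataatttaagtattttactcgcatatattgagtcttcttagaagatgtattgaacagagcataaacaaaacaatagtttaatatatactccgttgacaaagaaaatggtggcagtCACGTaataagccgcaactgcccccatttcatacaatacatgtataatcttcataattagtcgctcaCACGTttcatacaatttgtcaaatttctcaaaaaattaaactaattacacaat
CRA1 held CATGCA in 2 places, OLEO1 in 3 and BETA-TIP in 1, and OLEO1 held ACGTG in 3 places, 2 of them within CACGTG. SHV2 and MOP10 held ACGTG in 2 places each and no CATGCA. Over the promoters of all 15220 tested nuclear genes, 7.12% held CATGCA and 23.2% ACGTG. Among the 8 tested seed genes 4 held CATGCA and 6 held ACGTG, among the 19 tested root hair genes 4 and 14, and among the 14 light and shade genes 0 and 6. For the 15 tested genes of abscisic acid and cold these counts were 1 (6.67%) and 5 (33.3%). Of 520 promoters of higher genes 11.7% held CATGCA and 32.1% ACGTG, and of 370 promoters of lower genes 9.46% and 27.6%. Read on the other strand ACGTG is CACGT, which is also part of the element that root hair promoters share, so that a match names no factor.

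Genes of abscisic acid, the hormone of seed dormancy and drought, were called in a minority of cases. Of 20 listed genes of abscisic acid and cold, 15 were tested, 5 rose and none fell (median 0.63). The mean log2 level of the list in gun1, relative to wild type, was 0.50 under TMM, 0.26 with nuclear-encoded totals and 0.01 with library totals. With nuclear-encoded totals the lowest gun1 library (-0.13) lay below the highest wild-type one (0.22). ABI3 (AT3G24650), the B3 transcription factor of seed maturation, had 2, 1.37 and 1.3 CPM in gun1, against 0.317, 0 and 0.502 CPM in wild type (2.48 ± 0.56, adjusted p = 0.0114). HAI1 (AT5G59220), a protein phosphatase that restrains the abscisic acid signal, had 3.3, 3.17 and 2.98 CPM in gun1, against 1.11, 1.37 and 1.45 CPM in wild type (1.27 ± 0.30, adjusted p = 0.0151). NCED3 (AT3G14440), which makes the first committed step of abscisic acid synthesis, had 14, 11.9 and 11.9 CPM in gun1, against 6.18, 7.39 and 7.7 CPM in wild type (0.83 ± 0.22, adjusted p = 0.0293). PP2CA (AT3G11410), another phosphatase of the pathway that the list did not hold, had 22.6, 21.2 and 22.7 CPM in gun1, against 13.6, 9.02 and 13.2 CPM in wild type (0.89 ± 0.24, adjusted p = 0.0325). For HAI1 the range over gun1 was 0.14 log2, for NCED3 0.22 and for PP2CA 0.10, and gun1 1 was the highest of the 3 libraries for ABI3, HAI1 and NCED3. The other called members, named after their values were seen, were the phosphatase gene ABI1 (0.88) and the receptor gene PYL4 (0.86). The cold and drought genes COR47, LTI78 and KIN1 had -0.64, 0.27 and 0.63 and were not called.

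A minority of the genes of oil mobilisation, the breakdown of seed oil to sugar, were called. Of 18 genes, all tested, 4 rose and none fell (median 0.47), and 11 were separated upwards, against 14.8% of all tested genes. Their mean log2 level in gun1, relative to wild type, was 0.47 under TMM, 0.19 with nuclear-encoded totals and -0.08 with library totals. With nuclear-encoded totals the lowest gun1 library (0.101) lay below the highest wild-type one (0.185). ICL (AT3G21720) and MLS (AT5G03860) are the 2 enzymes peculiar to the glyoxylate cycle. ICL had 18.4, 31.5 and 27.1 CPM in gun1, against 5.27, 5.33 and 8.87 CPM in wild type (1.99 ± 0.28, adjusted p = 0.000209), and MLS had 3.44, 8.32 and 7.96 CPM in gun1, against 1.98, 2.37 and 2.73 CPM in wild type (1.47 ± 0.29, adjusted p = 0.00444). CSY3 (AT2G42790), a peroxisomal citrate synthase, had 14.6, 18.19 and 19.6 CPM in gun1, against 6.14, 9.6 and 12.4 CPM in wild type (0.90 ± 0.23, adjusted p = 0.0217), with wild type 3 near gun1 1. The fourth, PCK1 of gluconeogenesis, named after its values were seen, had a log2 fold change of 0.77, whereas the lipase gene SDP1, which starts oil breakdown, had -0.02.

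**Figure D2:**
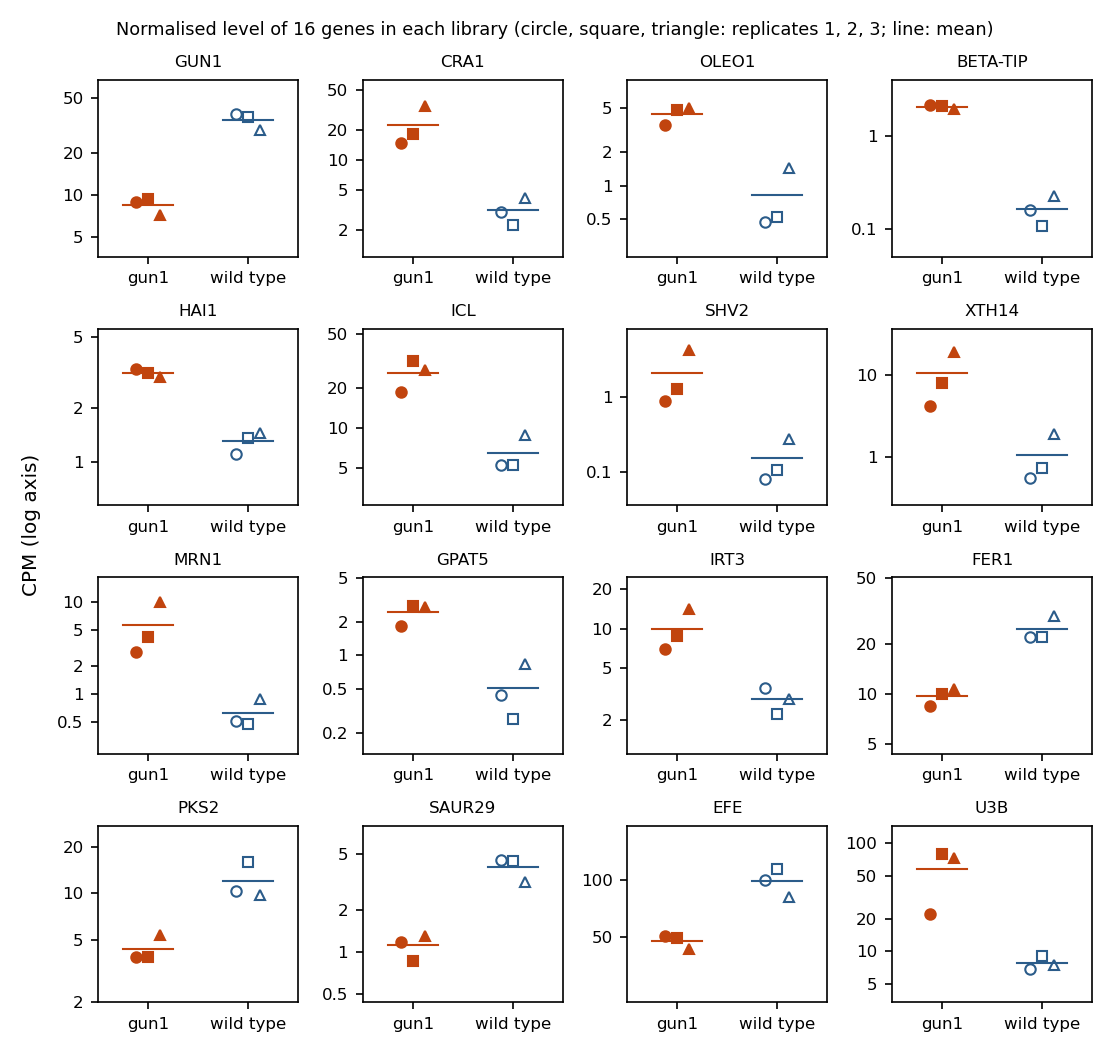
Normalised level (CPM, log axis) of 16 genes in each gun1 library (filled, left) and wild-type library (open, right), with replicates 1, 2 and 3 as circle, square and triangle and the mean as a line. BETA-TIP and HAI1 lie close together within gun1, XTH14 and SHV2 are spread, and in U3B gun1 1 stands below gun1 2 and gun1 3.

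Root hair genes had the highest median fold change and the highest median range over gun1 (2.47 log2) of the 28 lists. Of 22 listed genes 19 were tested and 9 rose, with a median of 3.05, and none fell. Their mean log2 level was 0.94, 2.32 and 3.59 in gun1 1, 2 and 3, and -0.47, -0.44 and 0.91 in wild type 1, 2 and 3, so that gun1 1 and wild type 3 lay almost level. With nuclear-encoded totals the lowest gun1 library (0.851) lay below the highest wild-type one (1.04). The summed level over all 22 was 19.1, 50.1 and 125 CPM in gun1, against 4.04, 4.22 and 15.6 CPM in wild type. Several tested members lay near 0 in wild type, so the filter partly sets the list's median and its absence of falls. SHV2 (AT5G49270, COBRA-like), which root hairs need to grow, had 0.894, 1.29 and 4.29 CPM in gun1, against 0.0792, 0.105 and 0.279 CPM in wild type (3.79 ± 0.61, adjusted p = 0.00131). MOP10 (AT5G05500), of the Ole e 1 and extensin family, had 1.72, 4.46 and 8.27 CPM in gun1, against 0.317, 0.58 and 0.725 CPM in wild type (3.17 ± 0.51, adjusted p = 0.0031). XTH14 (AT4G25820), a xyloglucan endotransglucosylase, had 4.2, 8.15 and 19.7 CPM in gun1, against 0.555, 0.739 and 1.9 CPM in wild type (3.37 ± 0.72, adjusted p = 0.0325). AGP3 (AT4G40090), an arabinogalactan protein, had 1.93, 3.95 and 11.4 CPM in gun1, against 0.515, 0.317 and 0.893 CPM in wild type (3.32 ± 0.68, adjusted p = 0.0238), and RHS13 (AT4G02270) had 1.1, 3.6 and 8.19 CPM in gun1, against 0.317, 0.264 and 1 CPM in wild type (3.05 ± 0.72, adjusted p = 0.0379). In these 5 genes gun1 3 was the highest and gun1 1 the lowest gun1 library, with a range of 2.08 to 2.73 log2, and the groups did not overlap. Among the uncalled members EXPA18 had 4.03 and EXPA7 3.43, with gun1 1 at 0.48 and 0.41 CPM and wild type 3 at 0.67 and 0.84 CPM, so their groups overlapped. With the mean root hair level of each library as a covariate beside genotype, 6 genes stayed called as higher and 3 as lower in gun1, among them CRA1, BETA-TIP and BGLU19 as higher and GUN1, SKIP5 and FER1 as lower. Of the 541 higher genes 521 kept their sign under the covariate, at a median of 0.70 in place of 1.49. The covariate came from these same data and itself differed between the genotypes, so it also takes up part of the genotype difference. A loss of calls under it therefore does not tell root content from genotype.

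Lists of other root genes had lower medians and ranges. Of 21 genes of the Casparian strip and suberin, the barriers of the root endodermis and of the seed coat, 16 were tested, 5 rose and none fell (median 1.12). Their lowest mean log2 level in gun1 lay above the highest in wild type under TMM (0.656 against 0.457). With nuclear-encoded totals it lay below (0.469 against 0.507). GPAT5 (AT3G11430), an acyltransferase of suberin synthesis, had 1.86, 2.83 and 2.76 CPM in gun1, against 0.436, 0.264 and 0.837 CPM in wild type (2.27 ± 0.35, adjusted p = 0.000511). CYP86A1 (AT5G58860), a fatty acid hydroxylase of root suberin, had 5.02, 7.29 and 9.49 CPM in gun1, against 0.436, 1 and 2.46 CPM in wild type (2.54 ± 0.41, adjusted p = 0.00338), and the transporter gene ABCG6 (AT5G13580) had 5.78, 6.78 and 9.34 CPM in gun1, against 1.66, 0.791 and 2.68 CPM in wild type (2.09 ± 0.44, adjusted p = 0.0175). All 3 were separated between genotypes, with a range over gun1 of 0.57 to 0.90 log2. By contrast CASP1, CASP2 and CASP5, which place the Casparian strip, had 2.15, 0.79 and -0.04 and were not called. Of 12 genes in the triterpene clusters, which make root triterpenes, 9 were tested, 5 rose and none fell (median 2.76). MRN1 (AT5G42600), marneral synthase, had 2.89, 4.21 and 10.03 CPM in gun1, against 0.515, 0.475 and 0.893 CPM in wild type (3.19 ± 0.43, adjusted p = 0.0004). SQP2 (AT5G24140), a squalene monooxygenase, had 2.27, 4.12 and 7.58 CPM in gun1, against 0.277, 0.158 and 0.725 CPM in wild type (3.6 ± 0.51, adjusted p = 0.000787), and THAS1 (AT5G48010), thalianol synthase, had 4.68, 6.44 and 16.7 CPM in gun1, against 0.515, 0.897 and 2.62 CPM in wild type (2.83 ± 0.68, adjusted p = 0.0449). Of 11 root genes of the ER body, a store of beta-glucosidase, all tested, BGLU22 alone rose (1.89 ± 0.47, adjusted p = 0.028), while PYK10, the main enzyme of that store, had -0.05, so not all root genes were higher.

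Wall proteins and enzymes, grouped by product name, were higher in several families. These families share members with the root hair list, such as EXPA18 and XTH14, so they are no separate result. Of 34 tested peroxidases 10 rose and 1 fell (median 1.29), of 37 extensins and proline-rich proteins 11 rose and none fell (median 1.85), and of 33 arabinogalactan proteins 4 rose and none fell (median 0.55). The peroxidase gene AT5G14130 had 0.963, 0.858 and 1.76 CPM in gun1, against 0.0792, 0.158 and 0 CPM in wild type (3.74 ± 0.59, adjusted p = 0.000549), resting on 10 to 23 counts per gun1 library and 0 to 3 per wild-type library. Of 45 lipid transfer proteins, which carry lipids to walls and cuticle, 11 rose and none fell (median 0.61). LTP4 (AT5G59310) had 3.16, 3.43 and 5.82 CPM in gun1, against 0.555, 0.475 and 0.837 CPM in wild type (2.73 ± 0.37, adjusted p = 0.000151) and LTP2 (AT2G38530) had 33.4, 37.3 and 51.4 CPM in gun1, against 15.5, 14.3 and 21.9 CPM in wild type (1.24 ± 0.28, adjusted p = 0.0118). Of 9 laccases LAC5 (AT2G40370) rose (2.55 ± 0.53, adjusted p = 0.00622) with 0.34 log2 of range over gun1. Of 20 expansins none was called, although 17 had a positive fold change (median 0.46). Of 24 xyloglucan endotransglucosylases XTH14 rose and TCH4 fell, and of 58 pectin-modifying enzymes 1 rose. Of 101 cytochromes P450 11 rose and 3 fell (median 0.10), and of 69 UDP-glycosyltransferases 4 rose and 1 fell (median 0.07), with UGT72E2 (AT5G66690) of lignin precursor metabolism at 3.06 ± 0.72, adjusted p = 0.0341.

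Transport genes were higher more often than lower. Of 104 tested members of the nitrate, peptide and major facilitator transporters, 13 rose and none fell, and 88 had a positive fold change (median 0.37). MSS1 (AT5G26340), a hexose carrier, had 4.54, 6.61 and 6.66 CPM in gun1, against 1.94, 1.58 and 2.62 CPM in wild type (1.53 ± 0.26, adjusted p = 0.000949). The sucrose transporter gene SUT2 (AT2G02860) had 5.16, 5.32 and 5.74 CPM in gun1, against 2.58, 2.96 and 2.57 CPM in wild type (1.00 ± 0.23, adjusted p = 0.0105), with only 0.15 log2 of range over gun1. Of 28 ABC transporters 3 rose and none fell (median 0.16). Of 22 genes for uptake of nitrogen, phosphate, sulfate and potassium 15 were tested and 4 rose (median 0.71). PHT1;4 (AT2G38940), a phosphate transporter, had 2.06, 2.66 and 2.68 CPM in gun1, against 0.951, 0.475 and 1.12 CPM in wild type (1.52 ± 0.34, adjusted p = 0.0105). PAP17 (AT3G17790), an acid phosphatase of phosphate starvation that the list did not hold, had 4.47, 4.38 and 3.9 CPM in gun1, against 2.42, 1.69 and 1.9 CPM in wild type (1.07 ± 0.25, adjusted p = 0.0134). WR3 (AT5G50200), the partner protein of nitrate carriers, had 1.91 ± 0.52, adjusted p = 0.0324. The ammonium transporter gene AMT1;1 (AT4G13510) had 0.91 ± 0.24, adjusted p = 0.0251, but its reads cannot be told apart from those of the overlapping AT4G13505. The fourth, SULTR1;2, named after its values were seen, had 1.51. PHT1;1 had a log2 fold change of 3.13 with a range of 3.17 over gun1 and was not called. By annotation term, chosen after values were seen, 20 of 224 genes of transmembrane transport rose and none fell.

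Few iron genes were called, in both directions. Of 26 listed genes 15 were tested, 3 rose and 1 fell (median -0.14). IRT2 (AT4G19680), a root iron transporter, had 1.38, 2.4 and 7.88 CPM in gun1, against 0.277, 0.0528 and 0.446 CPM in wild type (3.86 ± 0.80, adjusted p = 0.023). HA2 (AT4G30190), the plasma membrane proton pump that acidifies the root surface, had 113, 152 and 220.4 CPM in gun1, against 63.6, 50.5 and 101 CPM in wild type (1.17 ± 0.28, adjusted p = 0.0156). NAS1 (AT5G04950), which makes the metal chelator nicotianamine, had 3.44, 3 and 2.76 CPM in gun1, against 1.35, 1.16 and 1.84 CPM in wild type (1.08 ± 0.28, adjusted p = 0.0251), with no overlap and gun1 1 highest. IRT3 (AT1G60960), an iron and zinc transporter that the list did not hold, had 7.02, 8.75 and 14 CPM in gun1, against 3.52, 2.22 and 2.9 CPM in wild type (1.77 ± 0.26, adjusted p = 0.000362). FER1 (AT5G01600), a plastid ferritin that stores iron, fell (-1.34 ± 0.21, adjusted p = 0.000511), with 8.46, 10.04 and 10.8 CPM in gun1, against 22.2, 22.1 and 29.8 CPM in wild type. In FER1 gun1 1 was the lowest gun1 library, so that its order within gun1 was not that of most lower genes. The iron deficiency regulators BHLH100 and BHLH101 and the iron sensor BTS had -1.31, -0.43 and -0.44 and were not called. Nor were the other tested ferritin genes, FER3 (0.37) and FER4 (-0.78).

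**Figure D3:**
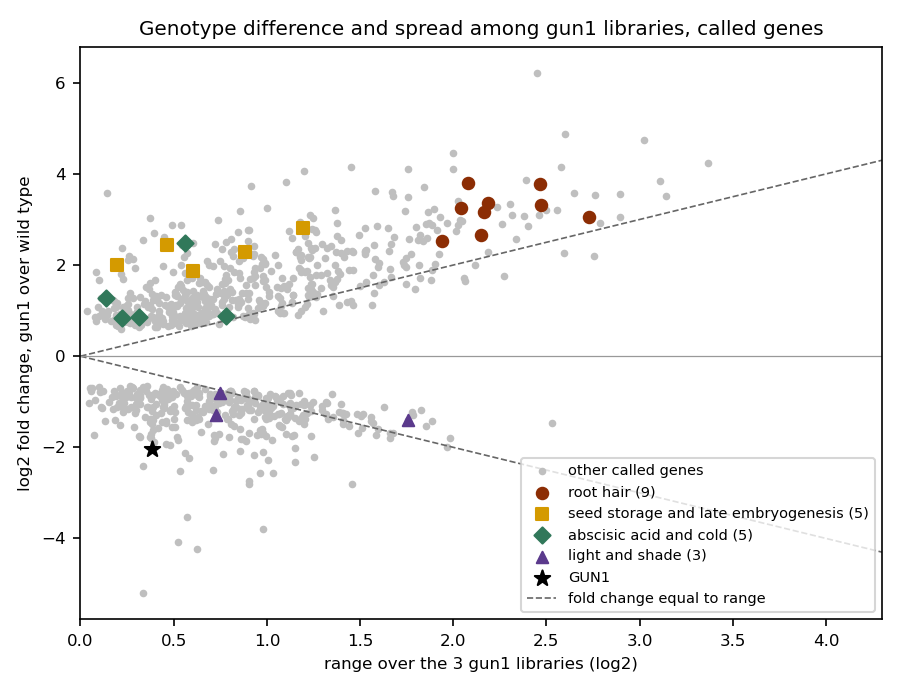
Log2 fold change, gun1 over wild type (y axis), against the range over the 3 gun1 libraries (x axis) for the 913 called genes, with the called members of 4 lists and GUN1 marked and dashed lines where both are equal. Called root hair genes lie at ranges of 1.94 to 2.73 and called abscisic acid genes at 0.14 to 0.78, while GUN1 has a range of 0.38. The ranges used a prior count of 2 and the fold changes did not, so ranges of genes with few counts are understated beside them.

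Some regulators of light and shade responses were lower. Of 17 listed genes 14 were tested, 3 fell and none rose (median -0.49). HFR1 (AT1G02340), a helix-loop-helix protein that holds PIF factors back, had 5.43, 3.52 and 3.21 CPM in gun1, against 7.72, 12.4 and 9.88 CPM in wild type (-1.29 ± 0.26, adjusted p = 0.00424). PIL6 (AT3G59060, PIF5), one of those factors, had 17.8, 10.6 and 13.2 CPM in gun1, against 28.4, 25.1 and 19 CPM in wild type (-0.80 ± 0.22, adjusted p = 0.0311). COP1 (AT2G32950), the ubiquitin ligase of dark growth, had 2.96, 1.46 and 0.765 CPM in gun1, against 6.54, 4.33 and 2.96 CPM in wild type (-1.40 ± 0.38, adjusted p = 0.0325), with gun1 1 and wild type 3 at the same 2.96 CPM. PKS2 (AT1G14280), a phytochrome kinase substrate that the list did not hold, had 3.85, 3.86 and 5.36 CPM in gun1, against 10.4, 15.9 and 9.71 CPM in wild type (-1.46 ± 0.26, adjusted p = 0.00164), and there gun1 3 was the highest gun1 library. The photoreceptor genes PHYA, PHYB and CRY1 had 0.13, 0.20 and 0.01 and were not called. Of 65 helix-loop-helix proteins 3 fell and none rose (median -0.34), and of 46 MYB proteins 1 fell (median -0.17).

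Several hormone and growth genes were also lower. SAUR29 (AT3G03820), an auxin-induced growth gene, had 1.17, 0.858 and 1.3 CPM in gun1, against 4.55, 4.43 and 3.12 CPM in wild type (-1.85 ± 0.32, adjusted p = 0.0015). Of 21 tested auxin genes 2 fell and none rose (median 0.05), the Aux/IAA repressor genes SHY2 (AT1G04240; -1.19 ± 0.27, adjusted p = 0.0118) and IAA29 (AT4G32280; -0.97 ± 0.23, adjusted p = 0.0126). BR6OX2 (AT3G30180), the last enzyme of brassinolide synthesis, had 3.23, 2.4 and 1.38 CPM in gun1, against 9.23, 9.02 and 5.19 CPM in wild type (-1.73 ± 0.32, adjusted p = 0.00246). Of 15 tested ethylene genes 1 rose and 2 fell (median 0.10). EFE (AT1G05010), the ethylene-forming enzyme, fell, with 50.6, 49.4 and 43.6 CPM in gun1, against 99.2, 114 and 81.5 CPM in wild type (-1.04 ± 0.22, adjusted p = 0.0065), whereas HLS1 (AT4G37580), an ethylene-induced gene of the apical hook, rose (1.02 ± 0.30, adjusted p = 0.0428). EFE had only 0.21 log2 of range over gun1. TCH4 (AT5G57560), a touch-induced xyloglucan endotransglucosylase, had 10.7, 11.2 and 7.96 CPM in gun1, against 22.4, 20.7 and 25.9 CPM in wild type (-1.21 ± 0.30, adjusted p = 0.0261), and LNG2 (AT3G02170), which promotes cell elongation, had 11.2, 11.4 and 10.9 CPM in gun1, against 19.6, 21.3 and 13.9 CPM in wild type (-0.71 ± 0.21, adjusted p = 0.0464), where wild type 3 lay nearest to gun1. Of 15 tested gibberellin genes the receptor gene GID1B rose (1.71 ± 0.39, adjusted p = 0.0117) and the peptide gene GASA6 (AT1G74670) fell (-0.83 ± 0.24, adjusted p = 0.0432; median of the list 0.27). The small peptide genes RGF9 (AT5G64770; -2.28 ± 0.49, adjusted p = 0.00763) and RTFL16 (AT3G25717; -1.73 ± 0.35, adjusted p = 0.00574) and the greening factor gene GNC (AT5G56860; -1.61 ± 0.42, adjusted p = 0.031) fell as well.

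Several genes of other functions fell. SKIP5 (AT3G54480), an F-box protein, had 0.138, 0.0858 and 0.0765 CPM in gun1, against 4.44, 3.96 and 3.85 CPM in wild type (-5.20 ± 0.47, adjusted p = 9.99e-07), the largest fall of all tested genes. PCAP1 (AT4G20260), a cation-binding protein of the plasma membrane, had 11.2, 8.93 and 11.7 CPM in gun1, against 33.9, 31.3 and 23.8 CPM in wild type (-1.48 ± 0.20, adjusted p = 0.000167). MT3 (AT3G15353), a metallothionein, had 9.63, 5.49 and 4.52 CPM in gun1, against 21.5, 20.4 and 14.4 CPM in wild type (-1.51 ± 0.23, adjusted p = 0.000511), at a locus whose reads cannot be set apart from those of AT3G03105 on the other strand. CAM5 (AT2G27030), a calmodulin, had 2.61, 1.37 and 1.91 CPM in gun1, against 6.1, 6.38 and 5.69 CPM in wild type (-1.60 ± 0.26, adjusted p = 0.000856), and the histone gene HTB9 (AT3G45980), which overlaps AT3G07315, had 4.82, 4.29 and 3.6 CPM in gun1, against 11, 11.6 and 8.82 CPM in wild type (-1.30 ± 0.22, adjusted p = 0.0013). Of 13 tested genes of sugar starvation, SEN1 (AT4G35770), induced in the dark, fell (-1.11 ± 0.22, adjusted p = 0.00392) and the sucrose synthase gene SUS1 (AT5G20830) rose (1.25 ± 0.29, adjusted p = 0.0132). bZIP1 (AT5G49450), a transcription factor of energy shortage, had 5.09, 4.12 and 3.37 CPM in gun1, against 9.51, 11.9 and 11.9 CPM in wild type (-1.40 ± 0.25, adjusted p = 0.00173). Of 18 tested glucosinolate genes CYP83B1 and CYP79B2, of the indole branch, rose (0.75 ± 0.19, adjusted p = 0.0194 and 0.87 ± 0.24, adjusted p = 0.0314), and TGG2 (AT5G25980), a myrosinase, fell (-1.03 ± 0.24, adjusted p = 0.0131) with 2.75, 2.66 and 2.76 CPM in gun1, against 5.07, 6.49 and 5.19 CPM in wild type.

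Nuclear genes for chloroplast proteins and for pentatricopeptide repeat proteins were among the lower genes. Of 224 tested pentatricopeptide repeat proteins, which mostly process organelle RNA, none rose and 10 fell (median -0.40), which is 4.46% against 2.42% of all tested genes. Of the 224, 62 were separated downwards and 7 upwards, against 13.3% and 14.8% of all tested genes. DG1 (AT5G67570), of chloroplast development, had 0.0688, 0.258 and 0.306 CPM in gun1, against 1.11, 1.53 and 1.17 CPM in wild type (-2.57 ± 0.55, adjusted p = 0.00726), from 1 to 4 counts per gun1 library and 21 to 29 per wild-type library. EMB3103 (AT1G10910) had -1.36 ± 0.30, adjusted p = 0.0103, while PGN (AT1G56570; -1.16 ± 0.27, adjusted p = 0.0128) cannot be told apart from the overlapping SVB. PnsB4 (AT1G18730) and NdhM (AT4G37925) belong to the chloroplast NDH complex, and PnsB4 had 3.65, 1.8 and 1.45 CPM in gun1, against 8.91, 8.81 and 5.86 CPM in wild type (-1.75 ± 0.30, adjusted p = 0.00131) and NdhM 1.24, 0.772 and 0.612 CPM in gun1, against 4.67, 5.33 and 1.28 CPM in wild type (-2.09 ± 0.47, adjusted p = 0.0143), where wild type 3 lay near gun1 1. The loci of PnsB4, SHY2, GASA6 and HCHIB overlap other counted genes. PTAC4 (AT1G65260), also known as VIPP1 and needed for thylakoids, had 8.46, 5.49 and 5.89 CPM in gun1, against 16.1, 19.7 and 14.2 CPM in wild type (-1.33 ± 0.21, adjusted p = 0.000688). The haem oxygenase gene TED4 (AT2G26670), of phytochrome chromophore synthesis, had 6.74, 6.78 and 6.51 CPM in gun1, against 9.82, 13.5 and 10.7 CPM in wild type (-0.76 ± 0.19, adjusted p = 0.0217), a range of 0.06 log2. By annotation term, chosen after values were seen, 27 of 193 genes of the chloroplast thylakoid membrane and 31 of 258 of the stroma fell, and 0 and 3 rose. Of 541 genes with the term mitochondrion 17 rose (3.14%, against 3.52% of all tested genes) and 10 fell (1.85%, against 2.42%). Mitochondrion-encoded genes had 21 of 54 higher and 0 lower (median 0.92).

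In small nucleolar and nuclear RNAs gun1 1 stood below gun1 2 and gun1 3. Of 25 tested, 5 rose and none fell (median 1.39), and their mean log2 level was 0.55, 1.37 and 1.4 in gun1 1, 2 and 3 and -0.19, 0.02 and 0.16 in wild type. U3B (AT5G53902), a guide of ribosomal RNA processing, had 22.1, 80.5 and 73.1 CPM in gun1, against 6.89, 9.13 and 7.48 CPM in wild type (2.90 ± 0.58, adjusted p = 0.0227), and U3D (AT5G54075) had 11.1, 46.2 and 45.3 CPM in gun1, against 4.04, 4.7 and 4.18 CPM in wild type (2.99 ± 0.57, adjusted p = 0.0192). Gun1 2 and gun1 3 were alike in both and gun1 1 was far lower. The reads of U3B are shared with the overlapping AT5G53905, and those of U3D with HSFA9 (AT5G54070; 2.96 ± 0.59, adjusted p = 0.0241), so that the seed heat shock factor gene HSFA9 cannot be read from them. PRIN2 (AT1G10522), of plastid redox signalling, had the same layout, with 6.12, 19.6 and 18.1 CPM in gun1, against 1.98, 2.32 and 1.9 CPM in wild type (2.81 ± 0.47, adjusted p = 0.00749), as had ICL and MLS above. Of 12 genes of nucleolar ribosome assembly FIB2 (AT4G25630) rose (2.00 ± 0.50, adjusted p = 0.0192) and 1 fell (median 0.40), and of 210 cytosolic ribosomal proteins 4 rose and 5 fell (median 0.17).

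Other programmes showed few or no called genes. None of the tested genes of cell division (11), jasmonate (10), heat shock and unfolded protein (9), flavonoids (8) or mitochondrial retrograde signalling (6) was called, with medians of -0.09, 0.37, 0.35, -0.16 and 0.15. Their members of smallest p were CYCD3;1 (-0.45 ± 0.31, adjusted p = 0.415), AOS (0.56 ± 0.20, adjusted p = 0.0879), BIP2 (0.74 ± 0.24, adjusted p = 0.0641), TT4 (0.72 ± 0.26, adjusted p = 0.0949) and NDB2 (0.92 ± 0.28, adjusted p = 0.0547). In oxidative stress CSD1 (AT1G08830), a cytosolic superoxide dismutase, rose of 13 tested (1.15 ± 0.30, adjusted p = 0.0269). In defence 5 of 19 listed genes were tested (median -0.44). The chitinase gene HCHIB (AT3G12500) rose (1.82 ± 0.35, adjusted p = 0.00346), 3 of the 5 were separated downwards without being called, and the 14 untested members held 58 counts in gun1 and 188 in wild type. By annotation term, chosen after values were seen, 6 of 143 genes of defense response rose and 13 fell (median -0.36). Of 12 cytokinin genes ARR3 rose, from 1 to 22 counts per gun1 library and 0 to 1 per wild-type library (adjusted p = 0.0434). Of 15 genes each, 2 of phenylpropanoids rose, and in cuticle and stomata LTP2 rose and the epidermal factor gene PDF2 fell (-0.79 ± 0.23, adjusted p = 0.0409). In the clock GI (AT1G22770) rose (0.79 ± 0.20, adjusted p = 0.0202) and AT3G54500 fell (-1.26 ± 0.30, adjusted p = 0.0197) of 14 tested, and the morning genes LHY and CCA1, not called, had -1.73 and -1.39 with wild type 3 below gun1 1 in both. Of 165 receptor kinases 8 rose (4.85%, against 3.52% of all tested genes) and 1 fell (median 0.13). BAK1 (AT4G33430) was among the higher ones (0.72 ± 0.19, adjusted p = 0.0288). Of 31 histones 2 fell (median -0.09). Among the remaining families, 3 of 25 subtilases, 2 of 13 ethylene response factors, 2 of 17 protease inhibitors, 2 of 114 F-box proteins and 1 of 21 WRKY proteins rose, and 0, 1, 1, 1 and 0 of them fell. Of 26 glutathione S-transferases 1 fell, and of 20 NAC proteins and 7 germin-like proteins none was called.

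The number of called genes depended on single libraries. Leaving out gun1 1 gave 939 higher and 814 lower genes, gun1 2 248 and 83, and gun1 3 118 and 65. Leaving out wild type 1 gave 129 and 93, wild type 2 101 and 53 and wild type 3 694 and 647. A set of 130 genes (82 higher and 48 lower), defined after the values were seen, was called whichever 1 of the 12 libraries was left out, which is 14.2% of the 913. This set held 3 of the 5 called seed genes (CRA1, OLEO1 and PER1), both called aquaporin genes, ICL and MLS of oil mobilisation, GPAT5 and CYP86A1 of suberin, MRN1 and SQP2 of triterpenes, and 2 of the 9 called root hair genes (SHV2 and MOP10). It held FER1 and GUN1 but none of the called members of the lists of light and shade, abscisic acid and cold, auxin or ethylene. Genes named above that it also held include IRT3, TSPO, KTI1, LTP4, BGLU19 and MSS1 among the higher and SKIP5, SAUR29, BR6OX2, PKS2, PCAP1, bZIP1 and PnsB4 among the lower genes.

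**Figure D4:**
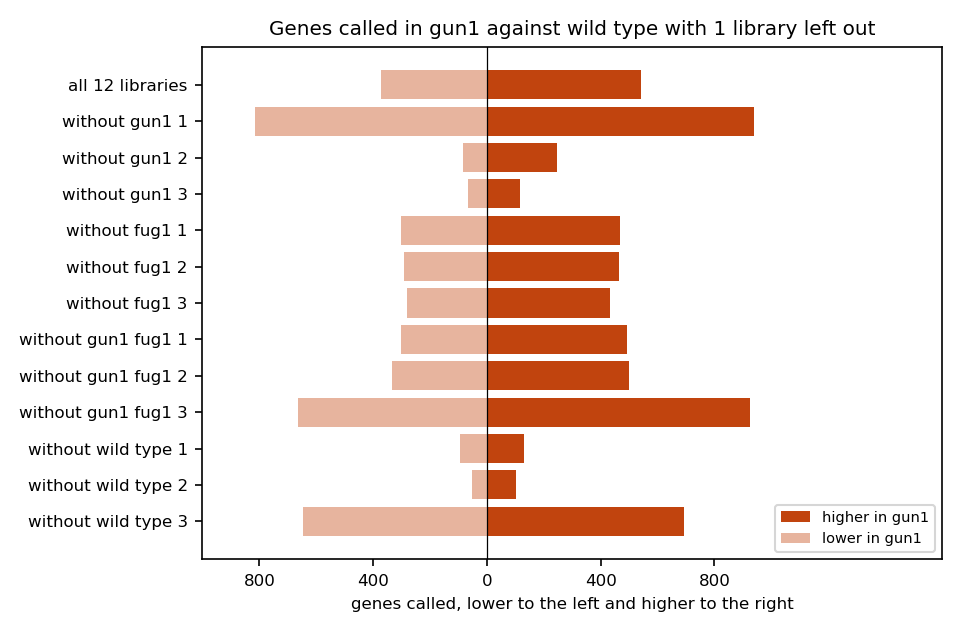
Number of genes called higher (right, dark) and lower (left, light) in gun1 against wild type with all 12 libraries and with each library left out in turn. The counts are 541 and 372 with all libraries, 939 and 814 without gun1 1, and 118 and 65 without gun1 3.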

How the data were processed

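Illumina TruSeq RNA-seq of total RNA from whole 4 d seedlings was deposited for 12 libraries, 3 of each of 4 genotypes. Per the labels and the submitters' processing notes, the authors used Trimmomatic, FastQC, TopHat2 (2.1.1) on TAIR10 and featureCounts, and the deposited values are raw counts per gene. Whether counting used strand, which annotation release it used and how it treated overlapping or multiply mapped reads is not given in the sources used here, so reads of overlapping genes may be shared.

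Groups came from the titles. Genes were filtered with filterByExpr, scaled by TMM and tested with edgeR 4.0.16 (R 4.3.3; robust quasi-likelihood fit of genotype over all 12 libraries, Benjamini-Hochberg adjustment, threshold 0.05), after a check on simulated counts. Standard errors were the log2 fold change divided by the square root of F. Log2 levels and the ranges taken from them used a prior count of 2, and the fold changes did not. All 36632 nuclear IDs matched the RefSeq annotation of TAIR10.1, and the 133 plastid and 152 mitochondrial IDs carry no gene names here. The 28 gene lists and 27 product families, like the comparison itself, were chosen with earlier results of these data known. Named genes were the called, non-overlapping genes with a symbol and at least 50 mean counts that ranked highest by fold change, p, level difference, gun1 range or ratio of fold change to range, and the called members of smallest p of each list. Alternatives included DESeq2 1.42.0 and limma 3.58.1.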

Additional observations from a re-analysis of the deposited data

How the results depend on the processing

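Of the 541 higher and 372 lower genes (913 in all), leaving out 1 library gave 101 to 939, 53 to 814 and 154 to 1753. Without gun1 fug1 replicate 3, which stood apart with a TMM factor of 0.0723, there were 925 and 664 (1589). Library totals without factors gave 0 and 1 (1; 570 at an unadjusted p under 0.05), shifted the median of all genes to -0.54, and left GUN1 at -2.61 with an adjusted p of 0.956. Library totals over the 6 libraries alone, chosen after seeing the data, gave 219 and 4762 (4981) at a median of -0.55. No filter gave 784 and 680 (1464), a stricter one 225 and 321 (546), and an adjusted p under 0.01 gave 156 and 73 (229). The mean root hair level as a covariate left 6 and 3 (9), and 21 and 8 (29) without gun1 fug1 replicate 3, an alternative chosen after seeing the data. RLE factors gave 493 and 444, DESeq2 584 and 430, and voom 523 and 361. The 6 gun1 and wild-type libraries alone, under TMM, gave 390 and 333 (723) of 14821 genes tested. The cause of these differences was not tested.

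Under the covariate, the log2 fold changes of FUG1 (0.377), FBA8 (-0.0433), PDF2 (0.0161) and ARR3 (-0.521) reversed, and without gun1 fug1 replicate 3 those of FUG1 (0.351), AMT1;1 (-0.00406), BGLU22 (-0.0556), COP1 (0.0173), PDF2 (0.00572) and ARR3 (-0.411). The replicate number as a block gave 717 and 581 (1298). Same-numbered libraries of gun1 and wild type deviated together at r = 0.315, 0.0387 and 0.36, and unlike-numbered ones at -0.388 to 0.167. Whether the numbers pair the samples cannot be told from these values. Of 112 called named genes, 43 were called whichever library was left out and 69 lost the call at least once.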
